A study of Mus musculus with 23 samples.

Results

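The RNA polymerase II peak list of this CUT&Tag study was described gene by gene. It held every interval that the merged list gives on chromosomes 1 to 19 and X, which was 10890 of its 10924 peaks, and 34 peaks on other sequences were left out. In CUT&Tag an antibody bound to chromatin guides a transposase that cuts and tags the DNA nearby, so that a peak marks where the antibody's target lay. The cells were CD4+ naive T cells of mice, taken from spleen and from lymph nodes that the labels call pLN. The 4 RNA polymerase II samples were 2 from wild-type (WT) mice and 2 from DDX55 knockout mice. DDX55 is a DEAD-box RNA helicase. The other lists used were H3K9me3 (2 WT and 2 knockout samples), DDX55 (2 and 2) and R-loops (4 WT and 4 knockout samples, of which 2 of each genotype were treated with RNase H). All samples of a target named 1 merged list of positions. The list gives neither a height nor a score, and it does not separate the samples. Genotypes therefore could not be compared, replicate spread could not be measured, the depth is unknown, and the labels do not say whether the samples came from separate mice. Over all sequences the 4 lists held 29404 peaks. On chromosomes 1 to 19 and X the other 3 held 16161 (H3K9me3), 1465 (R-loop) and 210 (DDX55).

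RNA polymerase II transcribes protein-coding genes. General transcription factors and Mediator place it at the promoter, and on many genes it then pauses a short way past the start, held by the factors NELF and DSIF, until the kinase P-TEFb releases it into the gene body. After the transcript is cut at the polyadenylation site, the polymerase runs on past the 3′ end before it leaves the DNA. The labels do not say which phosphorylated form of the polymerase, if any, the antibody prefers, so a peak is taken here as polymerase of any form. A gene is its span from the lowest to the highest coordinate of a protein-coding gene in the RefSeq gene table (assembly GRCm38.p6, whose coordinates are those of mm10). A gene end means the 3 kb on each side of either end of that span. There were 21631 such genes. Strand and start sites came from the RefSeq promoter table, which matched 17274 of them.

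Promoter sequence is shown first for 5 genes whose printed bases lie wholly inside a peak, because a large share of the list sits over gene starts. The first 4 below are the first genes, in order of covered bp, that meet this condition, and Polr2a encodes the largest subunit of the polymerase itself. Each stretch is from RefSeq GRCm38.p6, reads 5′ to 3′ on the strand of its gene, and ends at the last base before the gene span. Capitals mark matches on either strand to the TATA element TATAAA, the CCAAT box, the GC box GGGCGG, the ETS element CCGGAAGT, the cyclic AMP response element (CRE) TGACGTCA and the E-box CACGTG, and no 2 matches shared a base in the stretches printed. Akap13 (chr7:75455284-75455525, + strand), which encodes a kinase anchoring protein, lies under a peak of 1085 bp. Thada (chr17:84466247-84466458, - strand) lies under a peak of 562 bp. Ubac2 (chr14:121878356-121878558, + strand) lies under a peak of 2040 bp. Dusp10 (chr1:184034131-184034380, + strand), which encodes a phosphatase of MAP kinases, lies under a peak of 1626 bp. Polr2a (chr11:69758634-69758883, - strand) lies under a peak of 2075 bp.
Akap13: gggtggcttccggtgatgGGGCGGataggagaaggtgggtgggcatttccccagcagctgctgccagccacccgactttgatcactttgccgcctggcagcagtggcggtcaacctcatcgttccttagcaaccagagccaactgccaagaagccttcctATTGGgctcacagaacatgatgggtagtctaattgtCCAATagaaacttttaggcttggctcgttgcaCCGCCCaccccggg
Thada: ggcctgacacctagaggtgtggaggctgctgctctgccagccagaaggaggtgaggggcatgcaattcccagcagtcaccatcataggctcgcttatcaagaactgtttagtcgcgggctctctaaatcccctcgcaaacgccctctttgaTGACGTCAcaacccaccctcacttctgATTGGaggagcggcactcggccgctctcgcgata
Ubac2: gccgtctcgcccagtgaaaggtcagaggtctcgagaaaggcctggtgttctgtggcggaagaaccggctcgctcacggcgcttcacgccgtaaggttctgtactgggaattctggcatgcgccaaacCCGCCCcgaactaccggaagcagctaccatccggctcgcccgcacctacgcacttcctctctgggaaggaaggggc
Dusp10: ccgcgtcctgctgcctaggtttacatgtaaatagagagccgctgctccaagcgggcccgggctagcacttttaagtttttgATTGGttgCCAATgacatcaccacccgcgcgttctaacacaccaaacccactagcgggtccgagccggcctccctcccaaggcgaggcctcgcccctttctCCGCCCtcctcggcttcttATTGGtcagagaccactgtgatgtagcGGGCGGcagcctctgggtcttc
Polr2a: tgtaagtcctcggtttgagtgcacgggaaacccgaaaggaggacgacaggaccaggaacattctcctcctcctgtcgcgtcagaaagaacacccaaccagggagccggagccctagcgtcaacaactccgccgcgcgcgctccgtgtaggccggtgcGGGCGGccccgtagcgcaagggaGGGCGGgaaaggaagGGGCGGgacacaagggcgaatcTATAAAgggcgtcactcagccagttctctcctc

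These 5 promoters differ in the elements they hold. GC boxes are found in 4 of them, with 3 matches in Polr2a, 2 in Akap13, 2 in Dusp10 and 1 in Ubac2. Thada has none and holds a CRE and a CCAAT box instead. Polr2a is the only one of the 5 with a TATA match. In the 300 base window of the promoter table (250 bases before and 50 after the start), CpG dinucleotides number 17 in Akap13, 21 in Thada, 32 in Ubac2, 24 in Dusp10 and 30 in Polr2a.

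For contrast, 3 promoters with no peak over them are shown, chosen after the values were seen. Polr2e (chr10:80039660-80039909, - strand) encodes another polymerase subunit, and its start lies 13499 bp from the nearest peak. Cdk7 (chr13:100730943-100731192, - strand) encodes the kinase of the general factor TFIIH, and the nearest peak is 79526 bp away. Alb (chr5:90460620-90460869, + strand) encodes serum albumin of the liver, and the nearest peak is 93843 bp away.
Polr2e: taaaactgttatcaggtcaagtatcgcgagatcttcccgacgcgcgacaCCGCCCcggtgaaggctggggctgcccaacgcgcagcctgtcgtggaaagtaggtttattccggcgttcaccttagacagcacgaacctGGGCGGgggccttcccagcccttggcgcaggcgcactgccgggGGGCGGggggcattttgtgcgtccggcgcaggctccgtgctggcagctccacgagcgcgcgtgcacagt
Cdk7: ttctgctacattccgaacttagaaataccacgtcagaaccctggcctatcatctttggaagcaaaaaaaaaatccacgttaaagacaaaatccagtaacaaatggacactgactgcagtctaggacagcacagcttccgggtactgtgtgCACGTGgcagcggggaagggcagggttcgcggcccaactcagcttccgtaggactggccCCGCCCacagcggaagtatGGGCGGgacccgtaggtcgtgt
Alb: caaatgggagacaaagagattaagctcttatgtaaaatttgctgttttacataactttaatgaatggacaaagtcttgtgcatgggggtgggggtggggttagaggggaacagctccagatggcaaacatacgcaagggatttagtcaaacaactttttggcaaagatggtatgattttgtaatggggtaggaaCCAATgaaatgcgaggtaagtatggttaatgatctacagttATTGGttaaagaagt

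The promoters of Polr2e and Cdk7 hold GC boxes like those above (3 and 2 matches) and 32 and 19 CpGs in the 300 base window, while that of Alb holds 3 CpGs and 2 CCAAT boxes. Among these 8 promoters the GC box and CpG counts overlapped between those with and those without a peak. The 3 without a peak were picked with their values known, so this is a description only.

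Across all 21045 promoter windows of the 17274 genes, 5374 (25.5%) overlapped a peak. The windows with a peak were richer in CpG, with a median of 24 (quartiles 17 and 30), against 8 (quartiles 3 and 20) in those without and 13 over all windows. Their median GC content was 62.3%, against 54% without a peak. The share of windows with a peak climbed from 0.728% of 3708 windows with 0 to 2 CpGs to 28.7% of those with 11 to 15 and 48.6% of those with 21 to 25, and was 45.1% at 31 or more. The share was thus no higher in the 2 richest classes than in the class of 21 to 25.

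**Figure D1:**
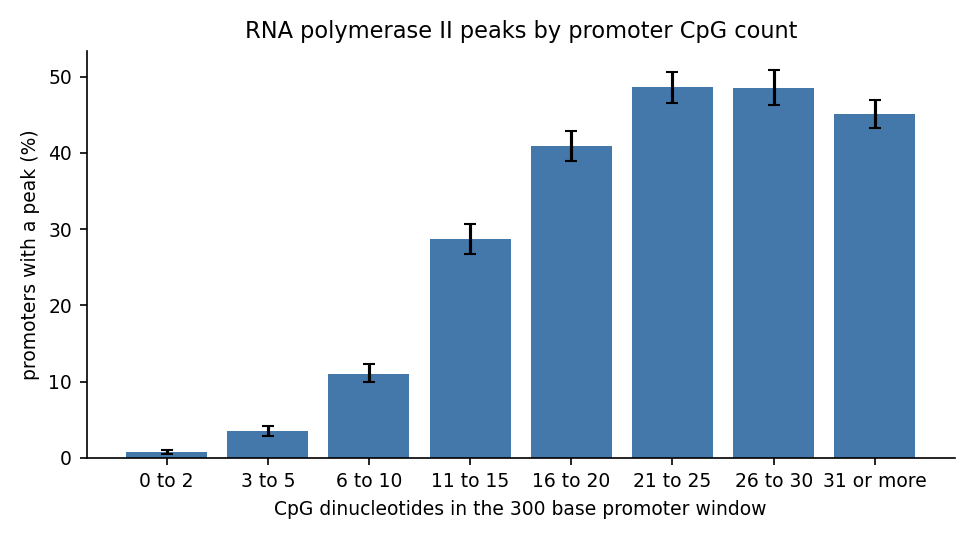
Share of 300 base promoter windows that overlap an RNA polymerase II peak (y axis, %) by the number of CpG dinucleotides in the window (x axis); bars are shares and lines are exact 95% binomial intervals, which cover counting error only. The share lies under 5% in the 2 lowest classes and between 40.9% and 48.6% from 16 CpGs upward.

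Single elements followed the same split. The GC box was in 70.1% of windows with a peak and 38.6% of those without (46.7% of all). The CCAAT box was in 42.5% and 37.1% (38.5% of all), and the E-box in 10.8% and 6.90% (7.91%). The ETS element was in 10.7% and 3.32% (5.20%), and the CRE in 4.17% and 1.60% (2.26%). TATAAA went the other way, with 5.68% of windows with a peak and 15.1% of those without (12.7% of all). These shares are descriptions of letters, CpG content differs between the 2 sets of windows, and its part in the motif shares was not tested.

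The list was checked against markers of the labelled cell type. Of 20 genes chosen as markers of CD4 naive T cells, 17 had a peak at a gene end, against 33.9% of all 21631 genes (7332). The median T cell marker had 3397 bp under peaks in its span and 3 kb around it, while the median over all genes is 0 bp. The CD3 chain genes Cd3d (1631 bp), Cd3e (696 bp) and Cd3g (844 bp) all had a peak, although that of Cd3g lies outside its span and is shared with Cd3d. Cd247, the zeta chain gene, had 7 peaks and 5890 bp. Tcf7, a transcription factor gene of naive T cells, had 6 peaks and 5936 bp, all of them away from its ends.

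Markers of other cells were mostly empty. An end peak was present at 1 of 9 B cell markers (Cd79a, 816 bp, outside its span) and 1 of 10 myeloid markers (Cd68, 2626 bp). Of 10 markers of CD8 T and NK cells, 1 had an end peak (Prf1, 240 bp, outside its span). Of 7 erythroid and platelet markers, 2 had an end peak (Klf1, 520 bp, and Epor, 268 bp, the latter outside its span). Mpo, a myeloid gene, had an interior peak of 417 bp. None of 10 genes of tissues outside blood had a peak in its span or at its ends. The marker lists were chosen with earlier results of these data known, so these counts describe the list and do not test the label. Ddx55 itself carried 1 peak of 686 bp, whose midpoint lies 437 bp from its 5′ end, and a list merged over both genotypes cannot say in which of them it was called.

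RNA polymerase II peaks were present in a minority of genes, usually singly. A peak overlapped the span of 7039 genes (32.5%). Of all genes, 14592 (67.5%) had none in the span, 5700 (26.4%) had 1, 889 (4.11%) had 2 and 450 had 3 or more (2.08%, exact 95% binomial interval 1.89 to 2.28%). There were 5 or more in 116 genes (0.536%) and 10 or more in 16 (0.0740%). The 450 genes held 1936 of the 9414 pairs of a gene and a peak in its span (20.6%). Intervals here cover counting error only.

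Peaks were short next to the genes. Their width ran from 170 to 3967 bp with a median of 638 bp, and together they covered 7945501 bp. A gene with a peak in its span had a median of 581 bp covered (quartiles 392 and 915 bp), which was a median of 2.42% of the span. Within 3 kb of the ends, genes with an end peak had a median of 816 bp covered (quartiles 536 and 1178 bp). The most in a span was 15325 bp, in Bach2, and the most at the ends was 5252 bp, in Vps37b.

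Gene length went with both the presence and the number of peaks. Only 8.36% of 2441 genes under 2 kb had a peak in the span. The share was 35.2% of 3914 genes of 10 to 20 kb and 45.5% of 2514 genes of 50 to 100 kb, and it was lower again, at 26%, in the 990 genes of 200 kb or more. Peaks at gene ends had a similar course, from 10.4% in the shortest class to 42.0% at 50 to 100 kb and 17.9% at 200 kb or more. Having 3 or more peaks was more frequent in longer genes. None of the genes under 2 kb had 3 or more, and 3 genes of 2 to 5 kb, 7 of 5 to 10 kb and 24 of 10 to 20 kb (0.613%) did, against 1.93% of genes of 20 to 50 kb, 8.35% of those of 100 to 200 kb and 7.47% of those of 200 kb or more. The median length was 17329 bp over all genes, 25030 bp for genes with a span peak and 88590.5 bp for those with 3 or more.

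**Figure D2:**
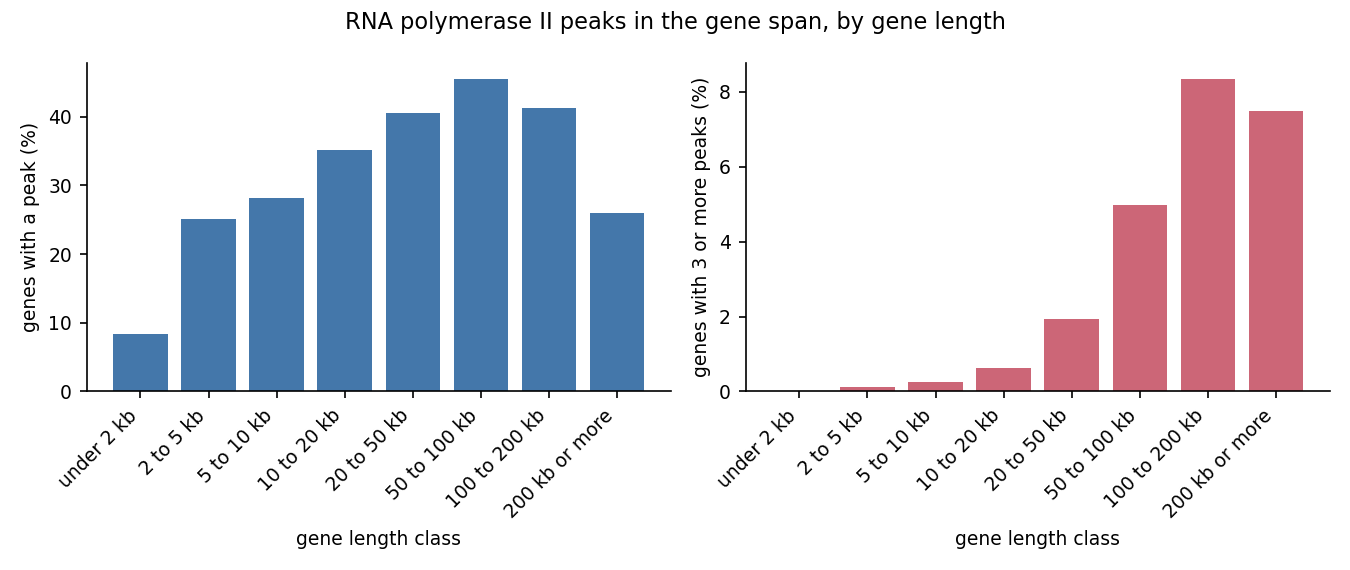
Share of protein-coding genes (y axes, %) with at least 1 peak in the span (left) and with 3 or more (right) in 8 classes of gene length (x axes); each bar is 1 class. The left share is highest at 50 to 100 kb (45.5%) and the right share at 100 to 200 kb (8.35%).

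Most of the list lay at the ends of genes. Of the 10890 peaks, 6746 (61.9%, interval 61.0 to 62.9%) were within 3 kb of a gene end, and these had a median width of 721 bp. Another 2620 (24.1%) lay inside a span but away from every gene end and were narrower, with a median of 518 bp. The remaining 1524 (14.0%, median 545 bp) met no protein-coding gene or its ends. Of the peaks at ends, 864 lay beside a gene without touching any span.

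Many end peaks were shared. While 4851 end peaks (71.9%) belonged to 1 gene, 1724 (25.6%) lay within 3 kb of the ends of 2 genes and 163 of 3. A peak of 827 bp on chromosome 13 (23573785 to 23574611) met the ends of 5 histone genes, H2ac7, H2ac8, H2bc7, H2bc8 and H3c4. A peak of 877 bp on chromosome 18 (37838381 to 37839257) counted for 24 genes, because the gamma protocadherin genes share their 3′ part. Counts of genes are therefore not counts of separate binding events.

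Coverage was concentrated at the 5′ end. Among 11035 genes of at least 10 kb with a known strand, 4034 (36.6%, interval 35.7 to 37.5%) had a peak within 3 kb of the 5′ end and 886 (8.03%, interval 7.53 to 8.55%) within 3 kb of the 3′ end. Of these genes, 3505 (31.8%) had a peak at the 5′ end alone, 529 (4.79%) at both ends, 357 (3.24%) at the 3′ end alone and 6644 (60.2%) at neither. Interior peaks were the only ones in 525 genes (4.76%).

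The position within the 5′ window was narrow. The covered share of the 11035 genes was 1.60% at 1000 bp before the 5′ end and 22.6% at the end itself. It was highest 200 bp inside the gene, at 26.1% (2879 genes), and 4.71% at 1000 bp inside. At the 3′ end it was 0.344% at 1000 bp inside the gene, 0.507% at the end and reached at most 1.97% (217 genes) 1200 bp beyond it. The 3′ maximum was thus outside the gene, and far lower than the 5′ maximum.

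**Figure D3:**
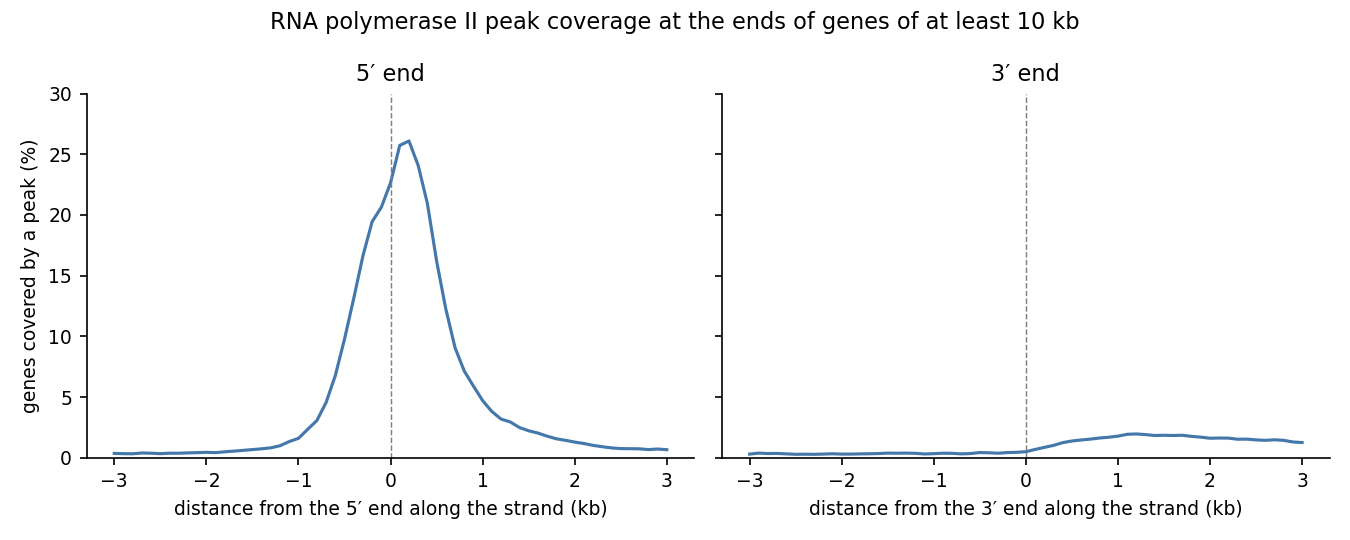
Share of 11035 genes of at least 10 kb (y axis, %) covered by a peak at each distance from the 5′ end (left) and from the 3′ end (right), in kb along the direction of transcription (x axes); dashed lines mark the ends. The 5′ curve is highest at 26.1%, 200 bp inside the gene, and the 3′ curve at 1.97%, 1200 bp past the gene.

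Neighbouring genes were frequent where the 3′ end had a peak. Another gene's start lay within 3 kb of the 3′ end in 306 of the 886 genes with a 3′ peak (34.5%), against 490 of 10149 without (4.83%). The part of such neighbours in the 3′ profile was not tested further. Along the gene body cut into 10 equal parts, the first part held 59.8% of the covered bp and the second 6.67%. Each later part held less than the second, down to 3.41% in the seventh, and the last part held 4.27%.

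At the start sites themselves, 4023 of 17274 genes (23.3%) had a start covered by a peak. In 1374 genes (7.95%) the nearest peak was 1 to 1000 bp away, and in 10816 (62.6%) it was over 10000 bp away. Peaks over a start were wider, with a median of 864 bp against 537 bp for peaks over none. Of 2894 peaks over exactly 1 start, 1831 (63.3%) reached further downstream than upstream. Their median reach was 455 bp into the gene and 352.5 bp before it. Interior peaks seldom sat on a listed start: 239 of 2221 pairs of a gene and an interior peak (10.8%) covered a listed start of that gene. In the 525 genes whose peaks were all interior, the number was 140 genes (26.7%), so a gene without an end peak can still have a covered start. These interior counts were chosen after the data were seen.

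The genes with the most peaks were all far longer than the median gene. Foxp1, a forkhead transcription factor gene of naive T cells (chromosome 6, 98925342 to 99522746), had the most, 23 peaks and 10898 bp, none within 3 kb of its outer ends. Bach2, a transcriptional repressor gene (chromosome 4, 32238413 to 32586109), had 18 peaks and the most covered bp of any span, 15325 bp. Cblb, a ubiquitin ligase gene that restrains T cell activation, had 16 peaks and 12369 bp. Inpp4b, a lipid phosphatase gene, had 16 peaks and 8627 bp, and Prkcq, the gene of protein kinase C theta in T cell receptor signalling, had 16 and 8409 bp.

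The other 10 of these 15 genes had 11 to 14 peaks each. Mbnl1, a splicing regulator gene, had 14 peaks and 12251 bp, and 1 of its peaks, 2836 bp wide, was the widest within any of the 15 genes. Akap13 had 14 peaks (9484 bp), Ankrd44 14 (8519 bp), Prkch, a protein kinase C gene, 13 (9994 bp) and the cytokine receptor kinase gene Jak1 13 (8809 bp). Satb1, a chromatin organizer gene of T cells, had 12 peaks (7082 bp) and Ptprc, the CD45 phosphatase gene, 12 (6766 bp). Ubac2 (8251 bp), Lef1, a partner of Tcf7 (7782 bp), and Dock10 (6288 bp) had 11 each.

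The order of these genes by number of peaks was not their order by length. Over all protein-coding spans there were 0.826 peaks per 100 kb. Prkcq and Satb1, of 129322 and 97104 bp, each had 12.4 per 100 kb, Jak1 had 11.5 and Ptprc 10.6. Foxp1, of 597405 bp, had 3.85, and Inpp4b, of 792047 bp, had 2.02. These genes were picked for their number of peaks, so their densities are descriptions.

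Within these genes the peaks were spread over the whole span. In the 14 of them with a known strand, 201 peaks were counted, of which 29 (14.4%) had their midpoint in the first 10% of the gene, 14 in the last 10% and 118 (58.7%) in the 5′ 50%. In Cblb a peak of 1079 bp lay with its midpoint 454 bp from the 5′ end, and 9 more lay within 69491 bp of that end, the widest of them 1538 bp. In Prkcq the peak nearest the 5′ end was 349 bp wide, and the widest ones lay 15231 bp (1147 bp) and 116709 bp (1152 bp) into the gene. In Satb1 a peak of 1285 bp lay 96692 bp from the 5′ end, close to the 3′ end. Akap13 had its start covered and then a gap of 115825 bp without a peak.

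**Figure D4:**
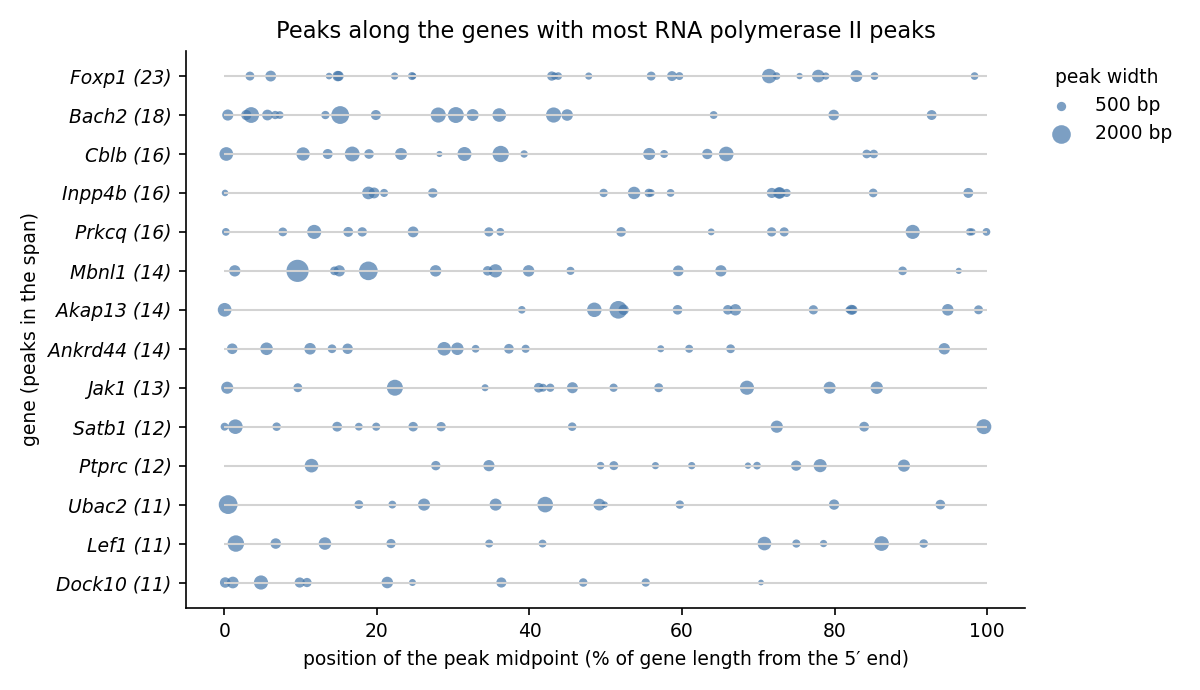
Positions of peaks along the 14 of the 15 genes with most peaks whose strand is known: each circle is the midpoint of 1 peak as a share of gene length from the 5′ end (x axis, %), with its area proportional to peak width, and each row is 1 gene with its number of peaks. Of the 201 peaks, 29 lie in the first 10% of the gene and the others are spread to the 3′ end.

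Spacing inside these genes ranged widely. The median gap between neighbouring peaks was 4427 bp in Satb1, 5128 bp in Cblb, 14871.5 bp in Foxp1 and 20028 bp in Inpp4b. Foxp1 had gaps from 205 to 108128 bp. Ankrd44 and Lef1 had no gap under 3 kb, with smallest gaps of 3922 and 3721 bp. Of 3 listed starts of Foxp1, 1 was covered by a peak, and of 5 listed starts of Satb1, 2 were.

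Ranking by covered bp, with 3 kb added at each end, brought in 4 further genes. Tex14 had 7 peaks and 10598 bp. Its 6 peaks inside the span were each 1392 to 1928 bp wide, while the peak beside its 5′ end was 642 bp. Thada had 9 peaks in the span and 9646 bp. Vps37b, a gene of the ESCRT sorting machinery, had 7 peaks in the span and 8363 bp, with 6 peaks at its ends. Dusp10 had 8 peaks in the span and 8086 bp, and its widest peak, 1626 bp, lay over the start shown above.

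Among genes of at least 10 kb, the largest covered share of the span was in Ccr7, the chemokine receptor gene that guides naive T cells to lymph nodes. Its 3 peaks of 1423, 1037 and 993 bp covered 2771 bp of its span of 10879 bp (25.5%). The widest of them reached outside the span. Eif4g2, a translation factor gene, followed with 23.2% and 3 peaks, and it also had 1329 bp of H3K9me3 peaks at its ends. Sidt2 and Arid5a had 21.1% each, and Arid5a, which encodes an RNA binding protein, had 1 wide peak near each end (1626 and 1808 bp). In Cd4, the coreceptor gene of these cells, 4 peaks of 461 to 2180 bp covered 20.8%. Vps37b had 20.1%, Ppp1r10 19.6%, Def6 and Rnf44 18.9% each and Tnfaip3, a gene that dampens NF-kB signalling, 18.8%. The median over all genes with a peak in the span was 2.42%, as given above.

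Neighbouring peaks were mostly far apart. The 10870 gaps had a median of 40586 bp (quartiles 12716.25 and 134046 bp), and 819 of them (7.53%, interval 7.05 to 8.05%) were under 3 kb. Gaps within the span of the same gene were shorter, with a median of 11244 bp over 2353 gaps, of which 453 (19.3%) were under 3 kb. The other 8517 had a median of 59996 bp, and 366 (4.30%) were under 3 kb. The smallest gap, 10 bp, was in H13, a signal peptide peptidase gene, and gaps of 24 bp were found in Map3k1 and Parp14. The largest, 15872099 bp, was on the X chromosome (113877495 to 129749593), over 23 protein-coding genes.

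**Figure D5:**
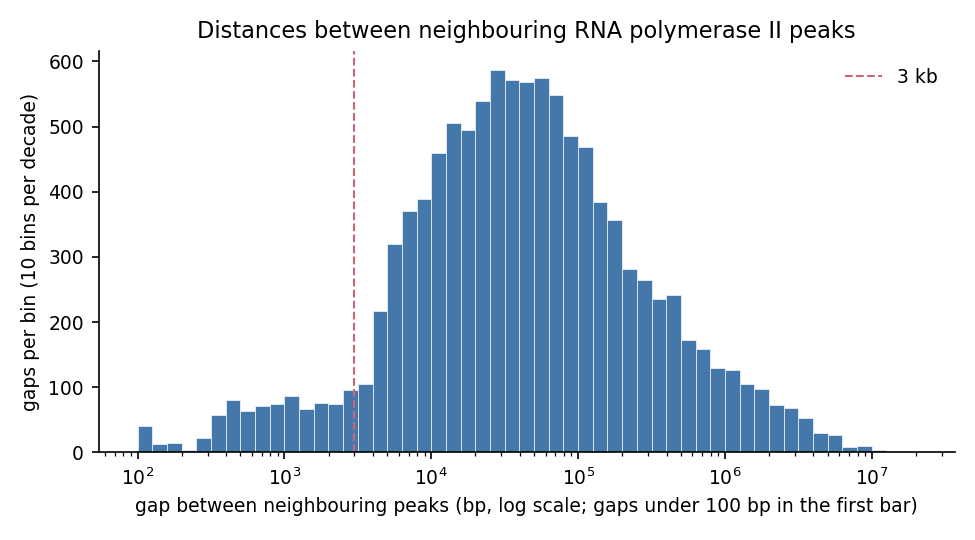
Number of gaps (y axis, 10 bins per factor of 10) by the distance between neighbouring peaks on a chromosome in bp (x axis, log scale); gaps under 100 bp are in the leftmost bar, and the dashed line marks 3 kb. Of the 10870 gaps, 819 lie left of the line, and the median is 40586 bp.

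Joining peaks less than 3 kb apart gave 10071 runs, of which 9320 (92.5%) were a single peak, 696 held 2 and 55 held 3 or more. The longest run by number held 6 peaks over 11327 bp on chromosome 12 (54727848 to 54739174), and no protein-coding gene lay within 3 kb of it. Runs of 4 peaks included those at Ccnd3 and Taf8 (9833 bp; Ccnd3 encodes cyclin D3), Dhx40 (8889 bp), Gpr132 (8384 bp), Actb and Fbxl18 (7774 bp) and Cd4 (7251 bp). Others lay at the phosphatase gene Dusp5 (6817 bp), at Hip1r and Vps37b (6302 bp) and at Klf2, a quiescence factor gene of naive T cells (5875 bp). Of the 10 longest runs, that at Cd4 had the largest covered part, 4911 bp. It was the only one of the 10 that also met peaks of the other lists, with 1 H3K9me3, 1 R-loop and 1 DDX55 peak.

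Genes of the transcription machinery itself were next described by role. In the 7 lists of factors that act with RNA polymerase II, 111 of 148 genes (75%) had an end peak, against 33.9% of all genes, and 5 had 3 or more peaks in the span. The median member had 729 bp under peaks in its span and 3 kb around it. The bp of single machinery genes below are counted the same way and so include peaks away from the ends. None of the 148 genes had an H3K9me3 or R-loop peak at an end, and 1, Wdr33, had a DDX55 peak there. Over all genes the shares with such an end peak were 2.97%, 0.633% and 0.254%.

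Of 13 subunit genes of the polymerase, 7 had an end peak. Polr2a had 2 end peaks and 2543 bp, the largest of them the 2075 bp peak over the promoter shown above. Polr2b, the second largest subunit, had 1090 bp and Polr2h 934 bp, followed by Polr2i (545 bp), Polr2d (396 bp), Polr2l (389 bp) and Polr2m (384 bp). Polr2c, Polr2e, Polr2f, Polr2g, Polr2j and Polr2k had none. The general initiation factors had an end peak in 20 of 31 genes, with Gtf2a1 at 1843 bp, the TATA binding protein gene Tbp at 1338 bp and Gtf2b at 1162 bp. The TFIIH kinase genes Cdk7, Ccnh and Mnat1 had none.

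Mediator, which bridges activators and the polymerase, had an end peak in 22 of 33 subunit genes. Med1 had 2428 bp, Med14 1975 bp and Cdk19, a Mediator kinase gene, 1834 bp. Med12l and Med13l had no end peak but 3 interior peaks each. Factors of pausing and release had one in 17 of 19 genes, the exceptions being Nelfe and Mllt1. Hexim1, an inhibitor of P-TEFb, carried a single peak of 2570 bp that begins before the gene, and 1362 bp of it lay in the span of 3401 bp. Aff1, a scaffold of the super elongation complex, had 6 peaks and 3806 bp, and Mepce, which caps 7SK RNA, had 2684 bp. The P-TEFb genes Ccnt2 and Cdk9 had 1893 and 740 bp, and the DSIF gene Supt5 had 1093 bp.

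Elongation factors had an end peak in 13 of 15 genes, led by the kinase gene Cdk13 with 5 peaks in the span and 3099 bp. Its cyclin gene Ccnk had 1364 bp and the histone chaperone gene Supt6 1168 bp, while Leo1 and Ssrp1 had none. Genes of 3′ processing and termination had one in 20 of 23, with 3755 bp at Pcf11, whose product links cleavage to termination, 2517 bp at the exonuclease gene Xrn2 and 2454 bp at the cleavage enzyme gene Cpsf3. Cpsf6, Sympk and Papola had none. The Integrator complex had one in 12 of 14 genes, Ints4 and Ints10 being without. For comparison, genes of RNA polymerases I and III had one in 12 of 15. Polr1a had 3187 bp, of which 1793 bp lay at its ends.

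At gene ends RNA polymerase II and H3K9me3, the methyl mark of heterochromatin, met rarely. Of 7332 genes with a polymerase end peak, 104 also had an H3K9me3 end peak (1.42%, interval 1.16 to 1.72%), against 539 of 14299 without (3.77%, interval 3.46 to 4.09%) and 2.97% of all genes. In 46 of the 104 both lay at the same end, and in 27 a polymerase peak shared bp with the mark. Counted over the span and 3 kb around it, Sfi1, a centrosome gene, had the most polymerase coverage among the 104, with 8 peaks and 4142 bp. By the same measure next came Eif4g2 (4080 bp), Sp100 (2690 bp), a nuclear body gene, and the class I histocompatibility gene H2-Q4 (2593 bp). Git2 (2339 bp) and H2-Q7 (2295 bp) followed. At the ends alone Sfi1 had only 610 bp and Sp100 934 bp, against 3695 bp in Eif4g2 and 2593 bp in H2-Q4. H2-Q4 and H2-Q7 belong to a family of similar copies, and how reads were divided among such copies is not given in the sources used here.

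R-loops, stretches of RNA paired with DNA, had shares with overlapping intervals in genes with and without a polymerase end peak. They met 51 genes with a polymerase end peak (0.696%, interval 0.518 to 0.914%) and 86 without (0.601%, interval 0.481 to 0.742%), against 0.633% of all genes. In 42 of the 51 both lay at the same end, and in 35 they shared bp. Counted over the span and 3 kb around it, Cd4 had the most polymerase coverage of the 51, 4911 bp. At its ends it had 1850 bp of polymerase, less than the 2297 bp of Cited2, and 2966 bp of R-loop peaks. Map3k12 and Tarbp2 shared a polymerase peak of 1958 bp and 370 bp of R-loop peaks. Cited2, a gene of a transcriptional coregulator, had a polymerase peak of 2297 bp and 343 bp of R-loop peaks, and Lsm14a and Zfp143 had 838 and 642 bp of R-loop peaks. The R-loop list was named by samples with and without RNase H, so it is not limited to signal that the enzyme removes.

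DDX55 peaks, though few, mostly met polymerase where they lay at gene ends. A DDX55 end peak was present at 41 genes with a polymerase end peak (0.559%, interval 0.402 to 0.758%) and 14 without (0.0979%, interval 0.0535 to 0.164%), against 0.254% of all genes. In 39 of the 41 the peaks of both shared bp. Over the whole list, 86 of 210 DDX55 peaks (41.0%) shared at least 1 bp with 85 of the 10890 polymerase peaks (0.781%). Both knockout and WT samples named the DDX55 list, so these positions cannot be tied to DDX55 protein alone.

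Of the 41 genes with DDX55 and polymerase, some were pairs with neighbouring ends, and the 41 had 38 distinct polymerase peaks at their ends. Hnrnpa1, an RNA binding protein gene, and Cbx5, the gene of heterochromatin protein 1 alpha, had 288 bp of DDX55 peaks between them and 3598 and 1646 bp of polymerase. Wdr33, a polyadenylation factor gene, and Sft2d3 had 323 bp, Atp6v1a and Naa50 331 bp, and Pign and Relch 302 bp. Single genes included Tut4 (335 bp), a terminal uridylyltransferase gene, Creb1 (475 bp), a transcription factor gene, and the chloride transporter gene Clcn3 (542 bp). Sfi1, named above, had 516 bp of DDX55 peaks at its ends. Its span held 13 H3K9me3, 2 R-loop and 8 DDX55 peaks beside 8 of polymerase, and how reads were placed there was not tested.

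The genes were also split by which of the other 3 lists they met at an end. Polymerase was at an end of 26 of 31 genes that had DDX55 alone of the other 3 (83.9%), 41 of 121 with R-loop alone (33.9%) and 83 of 608 with H3K9me3 alone (13.7%). With none of the 3 it was at 7161 of 20836 (34.4%). It was at 11 of 19 genes with H3K9me3 and DDX55, 6 of 11 with H3K9me3 and R-loop, and 4 of 5 with all 3, which are few genes. All 4 lists met at 4 genes in 2 clusters, Duxf3 and LOC100504180 on chromosome 10 and Gm51571 and Gm51572 on chromosome 8. At Duxf3 the ends had 988 bp of polymerase, 4794 bp of H3K9me3, 1337 bp of R-loop and 1379 bp of DDX55 peaks. Duxf3 belongs to a repeated gene family, and reads of such copies may be placed at more than 1 of them.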

How the data were processed

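CUT&Tag peak lists of CD4+ naive T cells from WT and DDX55 knockout mice were used. The authors deposited 1 merged list per target, holding start and end coordinates in bp (unit: other), with neither counts nor signal. The RNA polymerase II list is named by 4 samples. Per the submitters' processing notes the build was mm10 and the tools were MACS3 3.0.0b1, ChIPseeker 1.30.3, Bowtie2 2.5.0, fastp 0.12.4 and SAMtools 1.15.1. The roles of these tools, the peak threshold, and how samples were pooled or merged are not given in the sources used here. No depth can be read from the lists.

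Peaks on chromosomes 1 to 19 and X were overlapped (at least 1 bp) with 21631 protein-coding genes of the RefSeq GRCm38.p6 table and with a window of 3 kb on each side of each end. Strand and starts came from the RefSeq promoter table, which matched 17274 genes by gene identifier and had none on chromosome 18. Python 3.11.15, numpy 2.4.6, pandas 2.3.3 and scipy 1.17.1 were used. Overlaps were checked with bedtools 2.31.1 and tested on simulated data. No test between groups was run, since no value per sample exists. Shares have exact Clopper-Pearson 95% intervals.

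Named genes, other than Gm-number and Rik symbols except where all 4 lists met, were Ddx55; the 15 with most peaks in the span; the 15 with most covered bp; the 10 of at least 10 kb with the largest covered share; the 10 longest runs; up to 15 per other list by polymerase bp; and members of the machinery and marker lists. Some genes that this rule takes are not reported here. The members and lists were chosen with earlier results of these data known. Alternatives were other windows, an overlap of at least 50% of the peak, the wider 50% of the list, joined peaks, assignment to the nearest gene, autosomes only and named symbols only.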

Additional observations from a re-analysis of the deposited data

How the results depend on the processing

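Of 57 alternatives, 41 left the result within 1.5 times a count, or within its interval for a share, and 16 moved it. With the wider 50% of the polymerase list, 4730 genes had an end peak, 4633 had a span peak and 110 had 3 or more. The share of peaks at gene ends was then 72.0%, that of gaps under 3 kb 2.43%, and 63 genes met H3K9me3. With a 1 kb window or gap, 53.1% of peaks lay at gene ends, 4.05% of gaps were under 1 kb and 40 genes met H3K9me3. With 10 kb these were 73.4%, 20.6% and 285 genes, and 110 genes met R-loops and 62 DDX55. Without Gm-number and Rik symbols, 61.0% of peaks lay at gene ends. After peaks under 1 kb apart were joined, 3.63% of gaps were under 3 kb. No paired analysis was possible because the merged list has no value per sample, and for the same reason no replicate could be left out. What limits the counts is the unknown depth and peak threshold, the absence of strand for genes outside the promoter table, and peaks shared by neighbouring genes.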

Other observations

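The following counts were chosen after the data were seen. Genes with a divergent partner, that is, another gene starting within 1 kb on the opposite strand and pointing away, had their start covered by a polymerase peak in 902 of 1476 cases (61.1%, exact 95% binomial interval 58.6 to 63.6%). Among the 15798 other genes with a start the number was 3121 (19.8%, interval 19.1 to 20.4%). A peak between such a pair counts for both genes, and 448 peaks covered the starts of at least 2 genes.

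Chromosomes differed in the share of genes with a polymerase end peak. It was lowest on the X chromosome, with 166 of 966 genes (17.2%) and 23.2 peaks per 100 genes, followed by chromosome 7 with 27.1%. It was highest on chromosome 11, with 677 of 1609 genes (42.1%). By peaks per 100 genes chromosome 12 was highest, at 62.9. Of the 5 largest gaps between peaks, 2 were on the X chromosome, the larger of 15872099 bp.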
